A study of Mus musculus with 8 samples.

Results

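The 9 genes described here encode the enzymes and cofactors that write, maintain and remove methylation of cytosine in DNA. They are the de novo methyltransferases Dnmt3a and Dnmt3b with their cofactor Dnmt3l, the maintenance methyltransferase Dnmt1 with its recruiter Uhrf1, the TET dioxygenases Tet1, Tet2 and Tet3, and the DNA glycosylase Tdg. The genes were chosen by name and found by Ensembl identifier, and all 9 were present among the 43346 genes listed and among the 18055 genes with enough counts to be tested. RNA levels were measured in mouse embryonic stem cells; DNA methylation itself was not measured.

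De novo methyltransferases place methyl groups on unmethylated DNA, and DNMT3L, which has no catalytic activity, stimulates them. DNMT1 copies methylation onto the new strand after replication, guided by UHRF1, which binds hemimethylated DNA. TET enzymes oxidise methylated cytosine, and TDG excises some of the oxidised bases so that base excision repair can put back an unmodified cytosine. Mouse embryonic stem cells are known for high levels of Dnmt3l, Tet1 and Tet2, and their DNA methylation depends on the culture conditions.

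All cells came from 1 parental line of the background strain (129xC57BL/6) with the genotype Rosa26Cre-ERT2/BirA-V5, so that controls and altered lines alike carry a tamoxifen-inducible Cre and the BirA ligase. The TRIM71 knockout group has the genotype TRIM71-/- in addition, and TRIM71 is an RNA-binding protein of early embryonic cells. In the Mbnl1 3'UTR mutant, both copies of the 3' untranslated region of Mbnl1 carry a mutation; MBNL1 regulates alternative splicing. The Mbnl1 overexpression group was stably transfected with MBNL1::T2A::Puromycin. The parental line without these changes is called wild type. Cells grew on gelatin in medium with serum and the cytokine LIF. Each group had 2 libraries, and the labels do not say whether they came from separate cultures or clones. The p-values therefore set each difference only against the spread between such libraries of a group, pooled over the groups in the model. Differences between clones and effects of the genetic change cannot be told apart.

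Total counts were 75056306 to 86508533 per library, of which the 9 genes took 0.1956 to 0.2261%, and a member had between 872 and 51515 counts in a library. Trim71 stood at 101 and 105 CPM (counts scaled to a common library total by TMM) in the knockout libraries, against 630 and 628 CPM in wild type. Mbnl1 stood at 48.8 and 50.9 CPM in the knockout, 28.6 and 27.4 CPM in the mutant and 193 and 195 CPM in overexpression, where transgene and endogenous reads were not told apart, against 25.9 and 26.1 CPM in wild type. All 10 embryonic stem cell markers of a list including Pou5f1, Sox2 and Nanog were found, summing to 6070 to 6090 CPM in the knockout, 5860 to 5880 in the mutant, 5850 to 5940 in overexpression and 5270 to 5320 in wild type. All 8 markers of 2-cell-like cells stayed under 1 CPM in every library, as did 6 of 12 fibroblast and feeder markers. The 12 summed to 101 to 102 CPM in the knockout, 92.6 to 96.1 in the mutant and 81.2 to 87.1 in overexpression, against 68.7 to 73.3 in wild type. Of the 9 that could be tested, 5 rose and 1 fell in the knockout, beside 24.2% and 20.9% of all tested genes. In the mutant 2 rose and 2 fell (8.32% and 7.69%), and in overexpression 4 rose and 4 fell (27.7% and 27.2%). Thy1 rose 1.94-fold, Vim 1.39-fold and Col6a1 7.67-fold in the knockout. Twist1 had fewer counts there, 84 and 86 against 146 and 129 in wild type. Vim held most of the summed level in every library, with 7634 and 7166 counts in the knockout against 5173 and 4612 in wild type. The part of these markers in the members' values was not tested.

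The de novo machinery was lower in both the knockout and the overexpression line, and the cofactor Dnmt3l changed most. Dnmt3l (ENSMUSG00000000730.9, mm10 chromosome 10, 78041947 to 78063622, plus strand) had 41.4 and 42.1 CPM in the knockout, 131 and 142 CPM in the mutant and 37.8 and 42.4 CPM in overexpression, against 170 and 146 CPM in wild type. The knockout and overexpression libraries lay far below both wild-type libraries and overlapped each other, and the mutant libraries lay just under the lower wild-type library. Dnmt3l fell 3.78-fold in the knockout (log2 change -1.92, SE 0.0865, adjusted p = 1.89e-06, edgeR) and 3.94-fold in overexpression (log2 change -1.98, SE 0.0866, adjusted p = 9.36e-07). The fall was larger than the change of 98.1% of tested genes in the knockout and of 96.8% in overexpression. In the mutant the log2 change was -0.21 (SE 0.0817, adjusted p = 0.148) and did not pass, although DESeq2 called it (adjusted p = 0.0258), as did the edgeR model once wild-type replicate 2 was left out (adjusted p = 0.00413). Knockout and overexpression differed by 0.06 on the log2 scale (SE 0.0875, adjusted p = 0.599), a difference that was not detectable with these libraries. In bulk RNA, fewer cells that express a gene and less RNA per cell cannot be told apart.

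Dnmt3a (ENSMUSG00000020661.11, chromosome 12, 3806007 to 3914443, plus strand), one of the pair of catalytic de novo enzymes, was lowest in the knockout. Its level was 50.1 and 49.9 CPM in the knockout, 102 and 104 CPM in the mutant and 88.0 and 86.9 CPM in overexpression, against 106 and 115 CPM in wild type. The knockout libraries lay below all others, and the overexpression libraries lay between those of the knockout and those of the mutant. Dnmt3a fell 2.2-fold in the knockout (log2 change -1.14, SE 0.0409, adjusted p = 7.58e-13) and 1.26-fold in overexpression (log2 change -0.33, SE 0.0399, adjusted p = 1.45e-06). The mutant stood at a log2 change of -0.10 (SE 0.0398, adjusted p = 0.105) and passed only without wild-type replicate 1 (adjusted p = 0.0242). Set directly against overexpression, the knockout was lower by 1.75-fold (log2 change -0.81, SE 0.0408, adjusted p = 2.27e-11). For Dnmt3a the libraries of these lines did not overlap, while for Dnmt3l they did.

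Dnmt3b (ENSMUSG00000027478.11, chromosome 2, 153649450 to 153687730, plus strand), the other catalytic de novo enzyme, fell in all 3 altered lines, by less than Dnmt3a and Dnmt3l in the knockout and overexpression. It had 109 and 112 CPM in the knockout, 120 and 122 CPM in the mutant and 116 and 120 CPM in overexpression, against 143 and 144 CPM in wild type. All 6 libraries of the altered lines lay below both wild-type libraries. The fall was 1.3-fold in the knockout (log2 change -0.38, SE 0.0352, adjusted p = 1.26e-07), 1.18-fold in the mutant (log2 change -0.24, SE 0.0351, adjusted p = 9.15e-05) and 1.21-fold in overexpression (log2 change -0.28, SE 0.0351, adjusted p = 2.85e-06). In the model of all 8 libraries, Dnmt3b was the only member that fell in the mutant. The 3 comparisons share the wild-type libraries, so they are not independent of each other.

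Set against its enzymes within each library, Dnmt3l was also scarcer. The ratio of Dnmt3l to the sum of Dnmt3a and Dnmt3b, in counts per kb of merged exons, was 0.571 and 0.566 in the knockout libraries, 1.48 and 1.58 in those of the mutant and 0.451 and 0.493 in those of overexpression, against 1.65 and 1.40 in wild type. The cofactor's RNA thus exceeded that of its enzymes in the mutant and wild-type libraries and lay below it in the knockout and overexpression libraries, whose ranges did not overlap the others. The ratio of Dnmt3a to Dnmt3b was 0.142 and 0.137 in the knockout libraries, 0.261 and 0.261 in those of the mutant and 0.232 and 0.222 in those of overexpression, against 0.227 and 0.245 in wild type. Here the knockout libraries alone stood apart from wild type on the low side. Both ratios are descriptions with no test.

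**Figure D1:**
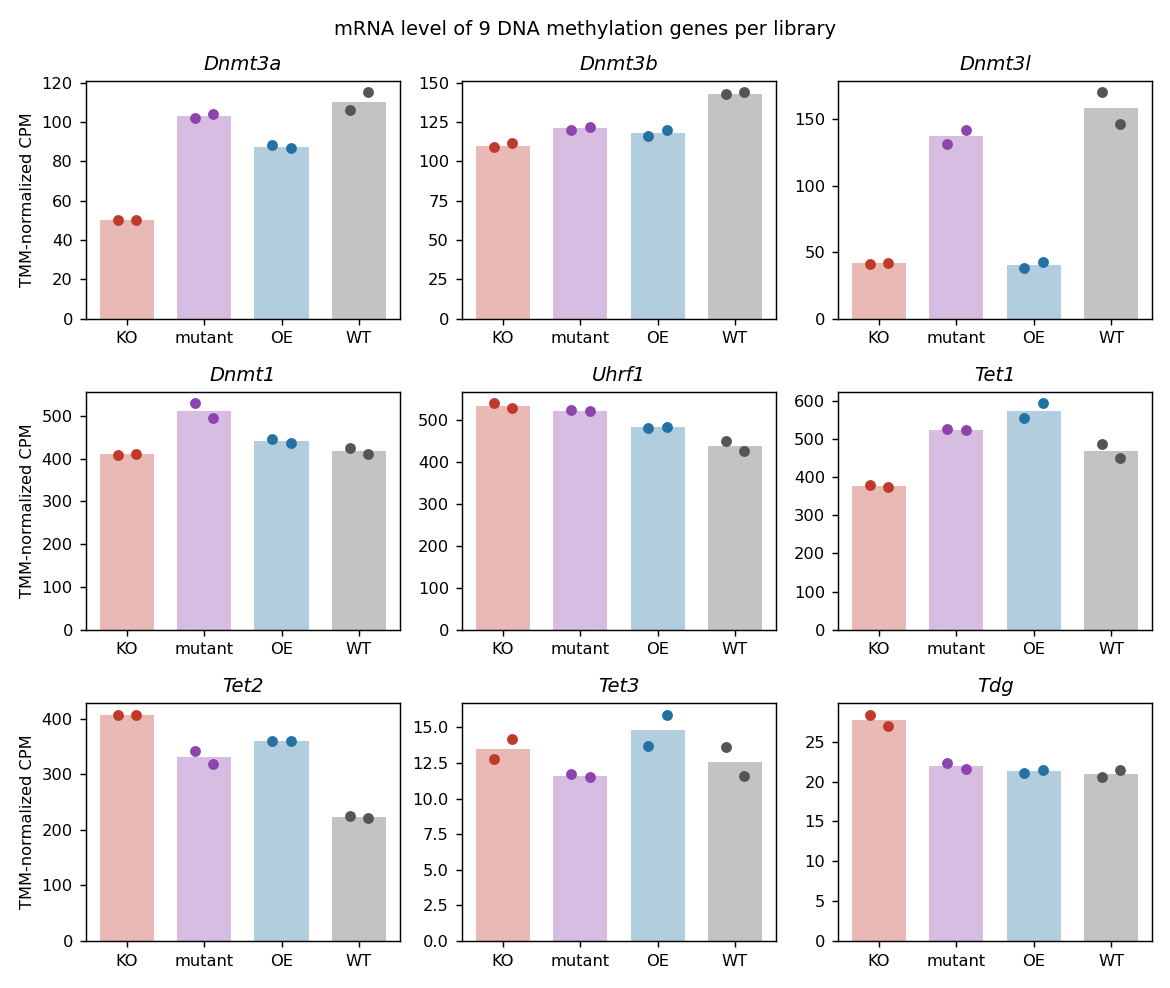
TMM-normalized CPM of the 9 genes in each library (points) with the group mean (bars), for the TRIM71 knockout (KO), the Mbnl1 3'UTR mutant, Mbnl1 overexpression (OE) and wild type (WT), n = 2 each. Dnmt3l is near 40 CPM in the knockout and overexpression libraries, against 170 and 146 CPM in wild type, and Tet2 is lowest in wild type.

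Sequence windows around the RefSeq start sites of these genes (GRCm38.p6, 250 bases before and 50 bases from the start) are shown where they differ most between members that fell. All 9 genes matched, with 16 windows between them. The 3 Dnmt3l windows held 6, 4 and 3 CpG dinucleotides, the sites of methylation, against a median of 7 over all 32851 windows of mouse genes. The Dnmt3b window held 30, and the 3 Dnmt3a windows held 46, 47 and 18. A GC box, the letters GGGCGG on either strand, was present in 35.7% of all windows. The lines give 30 bases around a GC box, 5′ to 3′ on the plus strand, with the motif in capitals; CCGCCC is the motif on the other strand.
Dnmt3l, chr10:78049752-78049781, first motif base at -78: gccccctcagccCCGCCCccatccacccca
Dnmt3l, chr10:78049808-78049837, first motif base at -22: gctccttaagacCCGCCCctgagtgcctgc
Dnmt3b, chr2:153649377-153649406, first motif base at -60: ggggcgccccccGGGCGGgggcggggccag
Dnmt3a, chr12:3806926-3806955, first motif base at -42: gagagaagaggcGGGCGGgggggacccggc
The Dnmt3b line holds a second GC box, in lower case right after the capitals, with its first base at -54. The same short motif was thus present in windows with few CpG and in windows with many. The central Dnmt3l window also held an E-box, CACGTG, found in 7.15% of all windows. A Dnmt3a window held it as well, at -80, as did the Tdg window, at -28. No TATAAA was found in any of the 16 windows, against 13.6% of all windows. A match is a description of letters and shows no binding.

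Of the maintenance genes, Uhrf1 rose in each altered line and Dnmt1 rose in the mutant. Dnmt1 (ENSMUSG00000004099.11, chromosome 9, 20907209 to 20959888, minus strand) had 409 and 411 CPM in the knockout, 529 and 495 CPM in the mutant and 447 and 436 CPM in overexpression, against 426 and 412 CPM in wild type. The mutant libraries lay above all others, and the knockout libraries lay just under wild type. Dnmt1 rose 1.22-fold in the mutant (log2 change 0.29, SE 0.0373, adjusted p = 2.83e-05). The log2 change was -0.03 in the knockout (SE 0.0373, adjusted p = 0.529) and 0.08 in overexpression (SE 0.0373, adjusted p = 0.0926), neither of which passed. Under 5 alternatives the overexpression value passed, with adjusted p-values between 0.00574 and 0.0483. Directly against the mutant, Dnmt1 was lower in the knockout (log2 change -0.32, adjusted p = 1.67e-06) and in overexpression (log2 change -0.21, adjusted p = 0.000117).

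Uhrf1 (ENSMUSG00000001228.10, chromosome 17, 56303321 to 56323486, plus strand), whose protein brings DNMT1 to newly replicated DNA, rose in all 3 altered lines. It had 540 and 530 CPM in the knockout, 524 and 522 CPM in the mutant and 481 and 485 CPM in overexpression, against 450 and 427 CPM in wild type. No library of an altered line overlapped wild type. The rise was 1.22-fold in the knockout (log2 change 0.29, SE 0.035, adjusted p = 3.1e-06), 1.19-fold in the mutant (log2 change 0.26, SE 0.035, adjusted p = 5.3e-05) and 1.1-fold in overexpression (log2 change 0.14, SE 0.035, adjusted p = 0.0024). The balance of the pair was highest in the knockout. Per kb of merged exons, Uhrf1 exceeded Dnmt1 by a factor of 2.29 and 2.23 in the knockout libraries, 1.72 and 1.83 in those of the mutant and 1.86 and 1.93 in those of overexpression, against 1.83 and 1.79 in wild type.

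Of the 3 Dnmt1 windows and the 2 Uhrf1 windows around RefSeq start sites, 1 of each gene holds a match to an E2F motif. The motif was TTTCCCGC, TTTGGCGC, TTTCGCGC or TTTGCCGC on either strand, which 2.26% of all windows have. Each window with a match held 33 CpG, more than 91.4% of all windows. The Dnmt1 window held 2 matches, with first bases at positions -219 and 33, and the match at -219 is shown. The share of 2.26% is counted per window and was not matched for CpG. E2F factors are known to regulate genes of DNA replication. The sequences show 30 bases around the motif, written along the strand of the gene with the motif in capitals.
Dnmt1, chr9:20952824-20952853, minus strand, first motif base at -219, motif on the other strand: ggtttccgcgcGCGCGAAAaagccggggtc
Uhrf1, chr17:56304117-56304146, plus strand, first motif base at -185: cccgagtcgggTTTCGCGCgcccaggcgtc
The list of 20 S phase genes and E2F targets gives the setting: the knockout had 3 that rose and 3 that fell, the mutant 5 that rose and 15 that did not pass, and overexpression 9 that rose and 1 that fell. Of all tested genes, 24.2% rose and 20.9% fell in the knockout. In the mutant 8.32% rose and 7.69% fell, and in overexpression 27.7% rose and 27.2% fell. E2f1, which stood at 18.3 and 18.7 CPM in the knockout, 19.4 and 18.8 CPM in the mutant and 28.8 and 27.3 CPM in overexpression, against 17.3 and 18.5 CPM in wild type, rose in overexpression (log2 change 0.65, SE 0.0524, adjusted p = 9.64e-09). E2f1 lies 0.92 Mb from Dnmt3b, among 180 tested genes of chromosome 2 whose median log2 change in overexpression was 0.51, and the part of this regional rise in its value was not tested.

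Among the TET enzymes, Tet2 rose in every altered line and Tet1 moved in both directions. Tet2 (ENSMUSG00000040943.8, chromosome 3, 133463679 to 133545139, minus strand) had 407 and 407 CPM in the knockout, 342 and 318 CPM in the mutant and 360 and 360 CPM in overexpression, against 225 and 221 CPM in wild type. Every library of an altered line lay well above wild type. Tet2 rose 1.83-fold in the knockout (log2 change 0.87, SE 0.0372, adjusted p = 7.69e-12), 1.48-fold in the mutant (log2 change 0.56, SE 0.0371, adjusted p = 1.28e-08) and 1.62-fold in overexpression (log2 change 0.69, SE 0.0371, adjusted p = 4.42e-11). The 3 altered lines also differed from each other, with the knockout above overexpression (log2 change 0.18, SE 0.0368, adjusted p = 0.000566) and overexpression above the mutant (log2 change 0.13, SE 0.0368, adjusted p = 0.00713). The last difference did not pass without mutant replicate 2 (adjusted p = 0.0797).

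Tet1 (ENSMUSG00000047146.11, chromosome 10, 62804570 to 62908996, minus strand), the most abundant TET transcript per kb in wild type, had 380 and 373 CPM in the knockout, 525 and 523 CPM in the mutant and 554 and 593 CPM in overexpression, against 486 and 450 CPM in wild type. The knockout libraries were the lowest of all and the overexpression libraries the highest, and neither overlapped wild type. Tet1 fell 1.24-fold in the knockout (log2 change -0.32, SE 0.0413, adjusted p = 7e-06) and rose 1.23-fold in overexpression (log2 change 0.29, SE 0.0412, adjusted p = 9.59e-06). In the mutant it rose 1.12-fold (log2 change 0.16, SE 0.0412, adjusted p = 0.0112), a rise that did not pass without wild-type replicate 2 (adjusted p = 0.149). Knockout and overexpression, set directly against each other, differed 1.52-fold (log2 change -0.61, SE 0.0413, adjusted p = 1.04e-09).

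Tet3 (ENSMUSG00000034832.11, chromosome 6, 83362373 to 83459084, minus strand), the TET enzyme known from the oocyte and zygote, was low in every group. It had 12.8 and 14.2 CPM in the knockout, 11.7 and 11.5 CPM in the mutant and 13.7 and 15.9 CPM in overexpression, against 13.6 and 11.6 CPM in wild type. Knockout libraries overlapped wild type, and the lower overexpression library stood next to the higher wild-type library. The rise in overexpression (1.18-fold, log2 change 0.23, SE 0.0854, adjusted p = 0.0322) did not pass without wild-type replicate 2 (adjusted p = 0.276) or without overexpression replicate 2 (adjusted p = 0.293). The log2 changes of 0.10 for the knockout (adjusted p = 0.364) and -0.12 for the mutant (adjusted p = 0.426) did not pass.

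The composition of TET transcripts changed with these levels. Tet2 made up 48.8 and 49.2% of the 3 TET transcripts per kb of merged exons in the knockout libraries, 36.9 and 35.3% in those of the mutant and 36.8 and 35.2% in those of overexpression, against 29.2 and 30.5% in wild type. Tet2 and Tet1 thus stood nearly level in the knockout, and Tet1 exceeded Tet2 in the other groups. With the length of the principal transcript in place of merged exons, the Tet2 share was higher in all libraries, at 60.8 and 61.0% in the knockout libraries, 49.1 and 47.5% in those of the mutant and 49.0 and 47.2% in those of overexpression, against 40.4 and 42.0% in wild type. The order of the groups was the same by both lengths, but whether Tet2 exceeded Tet1 was not. Tet3 made up 1.27 to 1.79% by merged exons. The Tet2 window upstream of its start site held 57 CpG, more than 99.8% of all windows, while those of Tet1 and Tet3 held 17 and 22.

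**Figure D2:**
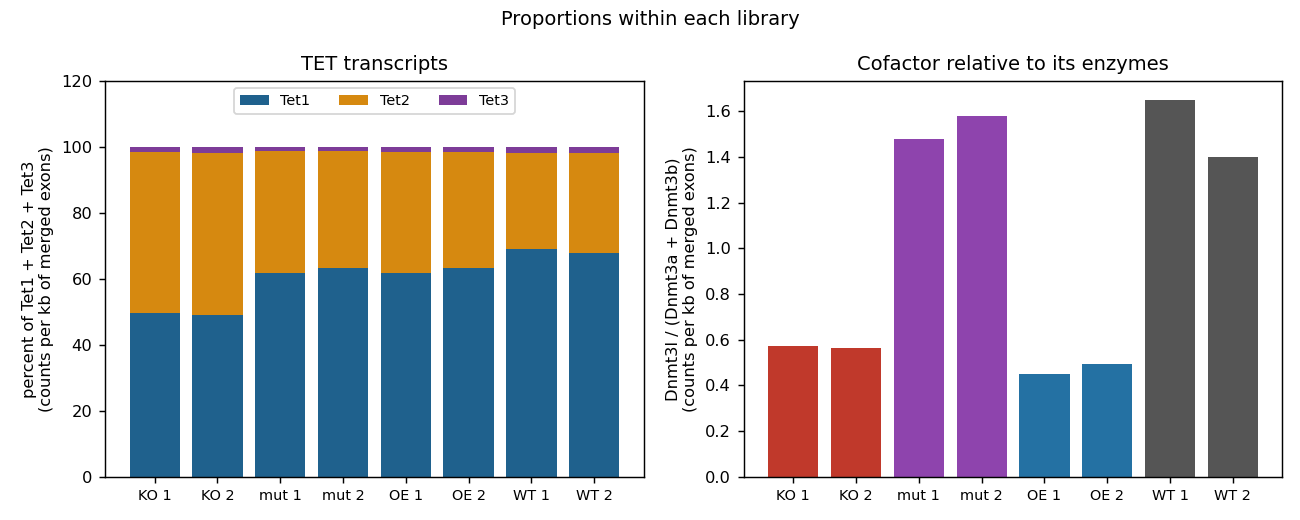
Left, share of Tet1, Tet2 and Tet3 among TET transcripts in each library (percent of counts per kb of merged exons); right, Dnmt3l divided by the sum of Dnmt3a and Dnmt3b per kb. Libraries run from the TRIM71 knockout (KO) over the Mbnl1 3'UTR mutant (mut) and Mbnl1 overexpression (OE) to wild type (WT). The Tet2 share is 48.8 and 49.2% in the knockout, against 29.2 and 30.5% in wild type.

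Tdg (ENSMUSG00000034674.14, chromosome 10, 82629828 to 82650799, plus strand), which excises oxidised forms of methylated cytosine made by TET enzymes, rose in the knockout alone among the tests against wild type. It had 28.4 and 27.0 CPM in the knockout, 22.3 and 21.6 CPM in the mutant and 21.1 and 21.5 CPM in overexpression, against 20.6 and 21.4 CPM in wild type. Both knockout libraries lay above all 6 others. The rise was 1.32-fold (log2 change 0.40, SE 0.0497, adjusted p = 3.68e-06), and Tdg was also higher in the knockout than in the mutant (log2 change 0.34, SE 0.0494, adjusted p = 2.31e-05) and than in overexpression (log2 change 0.38, SE 0.0493, adjusted p = 3.72e-06). Log2 changes from wild type were 0.07 in the mutant (adjusted p = 0.443) and 0.02 in overexpression (adjusted p = 0.755). The processed pseudogene Tdg-ps held 1 to 5 counts per library. Tdg shares 6.83% of its exon bases with Glt8d2 on the opposite strand, which had 7 to 35 counts.

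**Figure D3:**
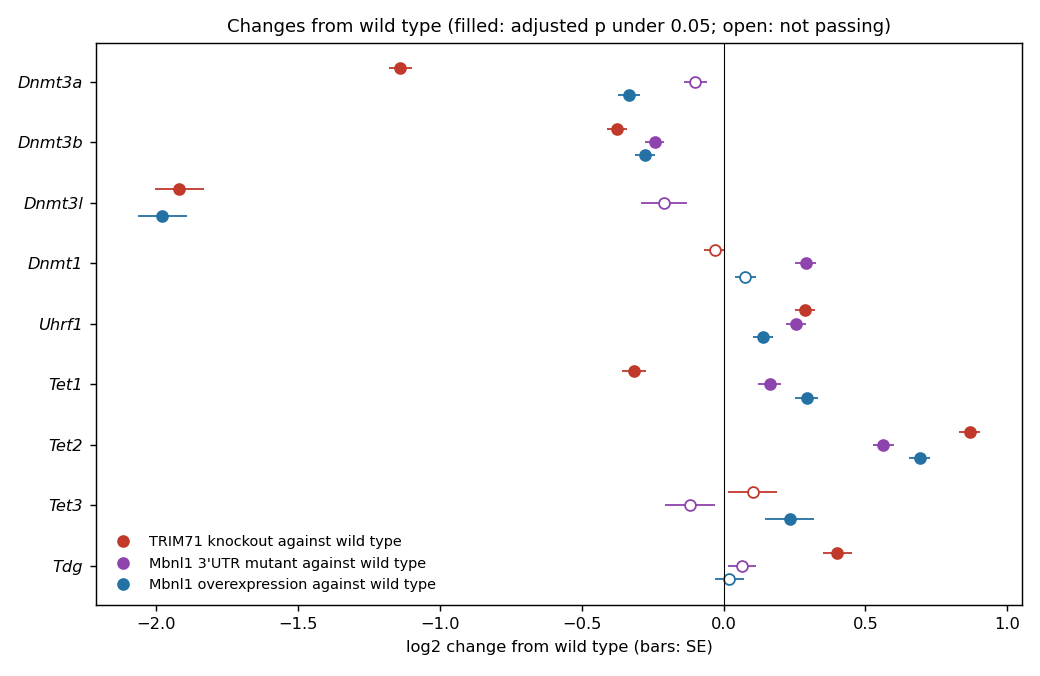
Log2 change from wild type of the 9 genes in the TRIM71 knockout, the Mbnl1 3'UTR mutant and Mbnl1 overexpression, with bars of 1 SE; filled points passed an adjusted p under 0.05 (edgeR) and open points did not. Dnmt3l at -1.92 and -1.98 and Dnmt3a at -1.14 in the knockout lie farthest from 0.

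Counted together, 3 members rose (Uhrf1, Tet2, Tdg) and 4 fell (Dnmt3a, Dnmt3b, Dnmt3l, Tet1) in the knockout, where 24.2% of all tested genes were called higher and 20.9% lower. In the mutant, 4 rose (Dnmt1, Uhrf1, Tet1, Tet2) and 1 fell (Dnmt3b), against 8.32% and 7.69% of all tested genes. In overexpression, 4 rose (Uhrf1, Tet1, Tet2, Tet3) and 3 fell (Dnmt3a, Dnmt3b, Dnmt3l), against 27.7% and 27.2%. In either direction, 7 of 9 members changed in the knockout, beside 45.1% of tested genes, and 7 of 9 in overexpression, beside 54.8%. In the mutant, 5 of 9 members changed, beside 16% of tested genes. The members' median log2 change was -0.03 for the knockout, 0.07 for the mutant and 0.08 for overexpression, beside -0.01 for all genes in each. A change of 2-fold or more was reached by 2 members in the knockout (7.5% of tested genes) and by 1 in overexpression (11.2%). In the mutant (1.61%) the largest was that of Tet2, at 1.48-fold.

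The altered lines were also compared directly, in the same model, whose estimate of the spread includes the wild-type libraries. In the knockout against the mutant, 2 members were higher (Tet2, Tdg) and 5 lower (Dnmt3a, Dnmt3b, Dnmt3l, Dnmt1, Tet1), beside 24.4% of tested genes higher, 21.3% lower and 45.7% in either direction. The Dnmt3b difference there did not pass without knockout replicate 1 (adjusted p = 0.0932). Tet3, at a log2 change of 0.22 (adjusted p = 0.0516), passed under 8 alternatives, with adjusted p-values between 0.00372 and 0.0383. In the knockout against overexpression, 3 were higher (Uhrf1, Tet2, Tdg) and 4 lower (Dnmt3a, Dnmt3b, Dnmt1, Tet1), beside 27.5% of tested genes higher, 27.2% lower and 54.8% in either direction. Of these, Dnmt3b (log2 change -0.10, adjusted p = 0.0238) and Dnmt1 (log2 change -0.11, adjusted p = 0.0208) did not pass without knockout replicate 1 or without knockout replicate 2, so that 2 lower members were left in each case. In overexpression against the mutant, 3 were higher (Tet1, Tet2, Tet3) and 4 lower (Dnmt3a, Dnmt3l, Dnmt1, Uhrf1), beside 26.7% of tested genes higher, 25.4% lower and 52.1% in either direction. The Tet1 difference (log2 change 0.13, adjusted p = 0.0126) did not pass without overexpression replicate 2 (adjusted p = 0.205). That of Uhrf1 (log2 change -0.12, adjusted p = 0.00995) did not pass without overexpression replicate 1 (adjusted p = 0.0831) or with library size alone (adjusted p = 0.25). Dnmt3b stood at a log2 change of -0.03 there (adjusted p = 0.44).

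Levels between members were compared per kb of merged exons. In wild type the order was Uhrf1 at 103 CPM per kb, Dnmt1 at 56.8, Dnmt3l at 52.9, Tet1 at 30.3, Dnmt3b at 28.0, Tet2 at 13.2, Dnmt3a at 6.62, Tdg at 3.90 and Tet3 at 0.754. Dnmt1 and Dnmt3l did not differ beyond their spread, with SDs of 1.31 and 5.53 (n = 2). Tet1, at 31.5 and 29.1, lay above Dnmt3b, at 28.0 and 28.1, with no overlap of libraries. By the length of the principal transcript Dnmt1 and Dnmt3l change places, as do Tet1 and Dnmt3b. Uhrf1 stood above 97.5% of tested genes and Tet3 above 34.5%. In the knockout Dnmt3l stood below Dnmt3b, at 14.0 beside 21.6 CPM per kb, and likewise in overexpression, at 13.4 beside 23.1. In the knockout Dnmt3a, at 3.0 CPM per kb, stood below Tdg at 5.16. The counts pool all transcripts of a gene, of which the annotation lists 13 coding for Dnmt3a, 10 for Dnmt3b and 6 for Dnmt3l, so isoforms with different activity are not told apart.

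The chromosomal neighbourhood of Dnmt3b differed in the overexpression line. The 180 tested genes within 5 Mb of Dnmt3b had a median log2 change of 0.51 in overexpression, 68.9% of them rose and 2.78% fell. Dnmt3b fell by 0.28 there, which is 0.78 below its neighbours' median, and 11 of the 180 had a lower value. Over all 1497 tested genes of chromosome 2 the median was 0.32. The neighbours' medians were 0.01 in the knockout and near 0 in the mutant (-0.0037), where Dnmt3b also fell. DNA copy number was not measured, and the part of this regional rise in the Dnmt3b value was not tested.

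In overexpression, the neighbours of each other member had medians closer to 0. The 208 genes around Dnmt3l had medians of 0.04 for the knockout and 0.12 for overexpression, and 2 of them had a lower value than Dnmt3l in each. The 51 genes around Tet2 had medians of -0.01 for the knockout, -0.00101 for the mutant and -0.12 for overexpression. Around Dnmt3a, 1 of 33 genes had a lower value than Dnmt3a in the knockout, where their median was -0.07. Around Uhrf1, 75 genes had a median of 0.12 for the knockout, 0.05 for the mutant and 0.25 for overexpression. In overexpression 44 of the 75 had a higher value than Uhrf1. Uhrf1 thus rose less there than most genes near it.

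**Figure D4:**
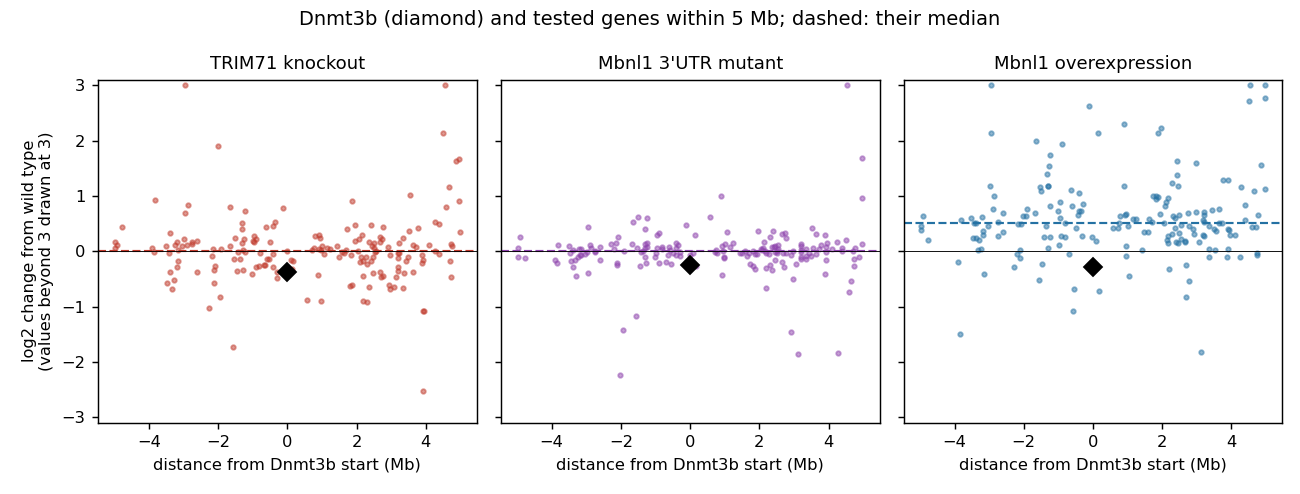
Log2 change from wild type of tested genes within 5 Mb of the Dnmt3b start, by distance in Mb, in the TRIM71 knockout, the Mbnl1 3'UTR mutant and Mbnl1 overexpression; Dnmt3b is the diamond, the dashed line is the neighbours' median and values beyond 3 are drawn at 3. In overexpression the median is 0.51 and Dnmt3b lies at -0.28.

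For each member, the genes with the most similar pattern over the 8 libraries were found among 10873 named genes by the root mean square difference of centred log2 CPM. Dnmt3l had 0 genes within 0.1. Its nearest was Mup6, of the major urinary protein family, whose close copies can share reads, at 0.109: it had 2.39 and 2.39 CPM in the knockout, 6.79 and 7.41 CPM in the mutant and 1.85 and 2.26 CPM in overexpression, against 7.64 and 7.92 CPM in wild type. Dnmt3a had 2 genes within 0.1, Rimklb at 0.0732 and F3, which encodes tissue factor, at 0.0849. Tet2 had 8, led by Ly75, an endocytic receptor, at 0.049, which had 249 and 252 CPM in the knockout, 195 and 193 CPM in the mutant and 213 and 205 CPM in overexpression, against 131 and 138 CPM in wild type. The other 6 members, whose levels ranged less, had 127 to 773 genes within 0.1. Uhrf1 was nearest to Hist2h2ac at 0.0273, a histone gene, and Tdg to Usp1 at 0.0224, a deubiquitinase of DNA repair.

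Genes that act with these enzymes were counted from lists written from general knowledge. The counts below stand beside shares over all tested genes of 24.2% higher and 20.9% lower in the knockout, 8.32% higher and 7.69% lower in the mutant, and 27.7% higher and 27.2% lower in overexpression. Of 20 partners and regulators of DNMT proteins and UHRF1, 6 rose and 7 fell in the knockout (median log2 change -0.03). In the mutant 6 rose and 14 did not pass (0.08), and in overexpression 6 rose and 7 fell (-0.03). Prdm14, known in mouse embryonic stem cells as a repressor of Dnmt3 genes, had 43.6 and 42.5 CPM in the knockout, 29.1 and 29.4 CPM in the mutant and 26.2 and 29.2 CPM in overexpression, against 24.8 and 24.3 CPM in wild type. Prdm14 rose 1.76-fold in the knockout (log2 change 0.81, SE 0.0514, adjusted p = 9.3e-10), 1.19-fold in the mutant (adjusted p = 0.00263) and 1.13-fold in overexpression (adjusted p = 0.00899). Zfp57, a zinc finger protein that protects imprint methylation, rose in all 3, to 424 and 423 CPM in the knockout, 429 and 421 CPM in the mutant and 465 and 451 CPM in overexpression, against 296 and 329 CPM in wild type. Kdm2b, which binds unmethylated CpG islands, had log2 changes of -0.54 for the knockout (adjusted p = 1.29e-09), 0.31 for the mutant (adjusted p = 6.35e-06) and -0.42 for overexpression (adjusted p = 1.43e-08). Pcna and Cdca7 rose 1.42-fold and 1.44-fold in overexpression (adjusted p = 7.43e-09 and 6.06e-10); PCNA is the replication clamp that DNMT1 binds. Both genes lie on chromosome 2, where the median log2 change of 1497 tested genes was 0.32 in overexpression, and the part of that rise in their values was not tested.

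Of 7 readers of methylated CpG, 3 rose and 3 fell in the knockout, 1 rose and 6 did not pass in the mutant, and overexpression had 1 that rose and 2 that fell. Zbtb4, a zinc finger reader, rose 2.22-fold in the knockout and 4.65-fold in overexpression (adjusted p = 4.95e-06 and 2.86e-10), at low levels of 2.53 and 2.78 CPM in the knockout and 5.59 and 5.53 CPM in overexpression, against 1.00 and 1.39 CPM in wild type. Of 20 tested genes of TET partners and base excision repair, 9 rose and 2 fell in the knockout, 2 rose and 3 fell in the mutant, and overexpression had 7 that rose and 6 that fell. The uracil glycosylase Ung, a relative of Tdg in function, had 76.0 and 77.6 CPM in the knockout, 59.7 and 60.5 CPM in the mutant and 73.0 and 71.0 CPM in overexpression, against 54.9 and 57.3 CPM in wild type. Ung rose 1.37-fold in the knockout (adjusted p = 3.74e-08) and 1.28-fold in overexpression (adjusted p = 3.61e-07). Neil2, another DNA glycosylase, fell 1.51-fold in the knockout (adjusted p = 3.13e-07) and 1.36-fold in overexpression (adjusted p = 5.2e-06). Cxxc5, a CXXC protein related to the DNA-binding module of TET enzymes, rose 1.09-fold in the knockout (adjusted p = 0.0255) and fell 1.11-fold in the mutant (adjusted p = 0.0299) and 1.47-fold in overexpression (adjusted p = 8.96e-09).

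DNMT enzymes take the methyl group from S-adenosylmethionine and TET enzymes use alpha-ketoglutarate. Of 20 genes of these supplies, 4 rose and 4 fell in the knockout, 7 rose and 1 fell in the mutant, and 5 rose and 7 fell in overexpression. The counts in the knockout are near the shares of all tested genes, 24.2% higher and 20.9% lower. Gldc, of glycine cleavage, which feeds the folate cycle, fell in all 3, with 118 and 123 CPM in the knockout, 147 and 142 CPM in the mutant and 115 and 110 CPM in overexpression, against 192 and 197 CPM in wild type. Idh2, a mitochondrial source of alpha-ketoglutarate, rose in all 3, with 81.2 and 81.9 CPM in the knockout, 65.0 and 65.0 CPM in the mutant and 92.9 and 87.1 CPM in overexpression, against 59.3 and 55.5 CPM in wild type. Neither gene's libraries overlapped wild type.

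Transcripts whose promoters are known to be methylated in other mouse cells were read beside the enzymes. Of 19 tested germline genes of this kind, 11 rose and 5 fell in the knockout with a median log2 change of 0.49, 1 rose and 4 fell in the mutant with a median of -0.11, and 9 rose and 5 fell in overexpression with a median of 0.17. Rhox5, a homeobox gene of this list, had 30.6 and 29.3 CPM in the knockout, 5.46 and 6.36 CPM in the mutant and 5.38 and 4.93 CPM in overexpression, against 5.14 and 5.17 CPM in wild type. Rhox5 rose 5.81-fold in the knockout (adjusted p = 5.91e-14), and the other groups lay close to wild type. Tex11, a meiosis gene, rose 2.48-fold in the knockout and 2.73-fold in overexpression (adjusted p = 3.4e-10 and 3.25e-11). Dazl, an RNA-binding protein of germ cells, rose 1.66-fold in the knockout (adjusted p = 1.3e-06) and fell 1.67-fold in overexpression (adjusted p = 1.9e-06). Tdrd1, of the piRNA pathway, fell 2.09-fold in the knockout (adjusted p = 5.56e-08) and 1.26-fold in the mutant (adjusted p = 0.0147).

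Imprinted genes, whose expression depends on methylation set in the germ line, fell more often than they rose in each altered line by count. Of 29 tested, 6 rose and 18 fell in the knockout (median log2 change -0.23), 5 rose and 9 fell in the mutant (-0.16), and 4 rose and 18 fell in overexpression (-0.59). H19, whose exons overlap another gene on the same strand, stood at 418 and 420 CPM in the knockout, 22.2 and 16.8 CPM in the mutant and 8.53 and 6.71 CPM in overexpression, against 47.0 and 44.9 CPM in wild type. Its neighbour Igf2 had 46.7 and 44.6 CPM in the knockout, 10.4 and 10.8 CPM in the mutant and 2.26 and 2.37 CPM in overexpression, against 17.3 and 13.9 CPM in wild type. Meg3, Mirg and Rian, noncoding RNAs of 1 imprinted cluster, fell 7.71-fold, 7.65-fold and 7.44-fold in overexpression (adjusted p = 1.68e-11, 7.95e-12 and 1.13e-16). These directions were known from earlier results of the same data and are given beside the enzymes as values.

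The enzymes are known to differ between states of pluripotency. Markers of those states also changed. In the mutant, Dnmt3b fell and Dnmt1, Uhrf1, Tet1 and Tet2 rose, while the changes of Dnmt3a, Dnmt3l, Tet3 and Tdg did not pass. Of 14 naive markers, 12 rose and 2 did not pass in the knockout (median log2 change 0.34). In the mutant 10 rose and 4 did not pass (0.17), and in overexpression 11 rose and 3 fell (0.22). Of 15 formative markers, 2 rose and 8 fell in the knockout (median -0.27), 5 rose and 6 fell in the mutant (-0.38), and 4 rose and 9 fell in overexpression (-0.41). Their summed level was 958 to 970 CPM in the knockout, 977 to 1030 in the mutant and 958 to 961 in overexpression. In wild type this sum was lower, at 913 to 934 CPM. Foxd3 of this list rose in the mutant (log2 change 0.64, adjusted p = 2.23e-06, edgeR). Pou3f1, a formative factor, fell by 1.24 in the knockout on the log2 scale (adjusted p = 6.06e-10), with 4.22 and 4.18 CPM, against 10.3 and 9.49 CPM in wild type. Klf4, a naive factor, had 220 and 221 CPM in the knockout, 192 and 177 CPM in the mutant and 301 and 291 CPM in overexpression, against 125 and 132 CPM in wild type. Klf2, also on the naive list, fell 2.02-fold in overexpression (adjusted p = 2.53e-13). It had 95.2 and 96.3 CPM there, against 200 and 188 CPM in wild type. Of 13 primitive endoderm markers, 1 rose and 9 fell in the knockout, 6 rose and 1 fell in the mutant, and 2 rose and 7 fell in overexpression. Their summed level was 516 to 517 CPM in the knockout, 674 to 848 in the mutant and 520 to 549 in overexpression, against 538 to 558 in wild type, and none of the 13 was under 1 CPM in every library. Gata4, a marker of primitive endoderm, had 0.652 and 0.765 CPM in the knockout, 11.2 and 13.0 CPM in the mutant and 5.35 and 4.52 CPM in overexpression, against 7.99 and 7.97 CPM in wild type. Foxa2 of the same list went the other way in the knockout and the mutant. It had 17.8 and 18.0 CPM in the knockout, against 4.26 and 2.94 CPM in wild type. In the mutant Foxa2 had 1.55 and 1.72 CPM, and in overexpression 0.636 and 0.576 CPM. Counts of Col4a1, also on this list, were higher in the knockout too, at 18931 and 17775 against 11400 and 11462 in wild type. Those of Col4a2 were 6900 and 6529 in the knockout, against 4361 and 4065 in wild type. Trophoblast markers summed to 171 CPM in the knockout, 98.6 to 104 in the mutant and 117 to 119 in overexpression, against 145 to 148 in wild type. Of these 12 markers, 4 were under 1 CPM in every library. Of 10 tested, 5 rose and 5 fell in the knockout. In the mutant 1 rose and 5 fell, and in overexpression 1 rose and 6 fell. In the knockout Tfap2c had 54.0 and 55.2 CPM, against 29.8 and 27.0 CPM in wild type, while Krt18 fell 1.57-fold. The part of these cell states in the changes of Dnmt3l, Dnmt3a and Tet2 was not tested.

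**Figure D5:**
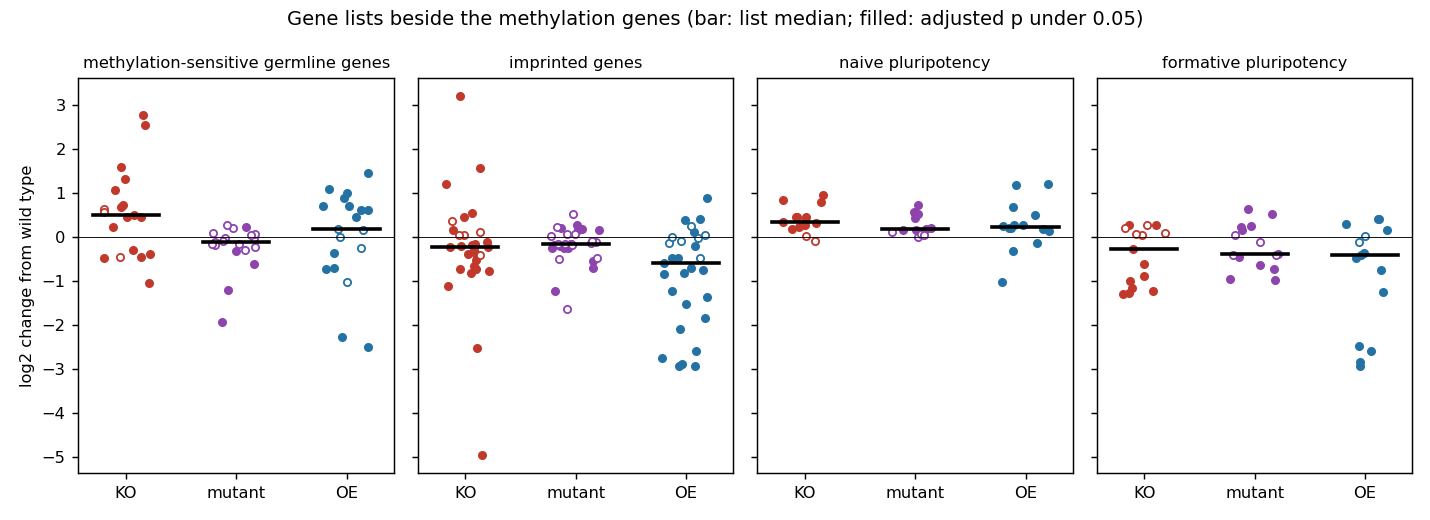
Log2 change from wild type of each tested gene of 4 lists (methylation-sensitive germline genes, imprinted genes, naive and formative pluripotency) in the TRIM71 knockout (KO), the Mbnl1 3'UTR mutant and Mbnl1 overexpression (OE); bars are list medians and filled points passed an adjusted p under 0.05. Naive markers lie mostly above 0, and imprinted genes in overexpression have a median of -0.59.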

How the data were processed

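Total RNA of 8 libraries (75 nt paired-end reads, stranded kit) was sequenced, per the labels' protocols. STAR 2.5.0 and the build mm10 are named for alignment, per the submitters' processing notes. The deposited files hold the authors' raw counts per gene, with no normalization; the sources used here do not name their annotation release or strand setting. Symbols, positions and exon lengths came from GENCODE M21 by identifier without version.

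Genes were kept by filterByExpr (minimum count 10, total 15), leaving 18055 of 43346. In R 4.3.3, edgeR 4.0.16 fitted 1 robust quasi-likelihood model to 4 groups of 2 libraries with TMM scaling (4 residual degrees of freedom; biological coefficient of variation 4.172%). P-values were adjusted by Benjamini-Hochberg over all tested genes and called under 0.05. SE is the absolute log2 change divided by the root of F. An exact permutation test of 2 against 2 libraries cannot go below p = 0.333. The procedure was also run on simulated data, and the outcome is not reported here. Libraries of a group differed beyond counting noise (chi-square per degree of freedom 6.006 to 28.02), so none was counted as a duplicate.

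The members and all lists were chosen with earlier results of these data known. Named are all members, Trim71 and Mbnl1, up to 4 called genes per list and comparison by size of change (mean log2 CPM 1 or more), and the 2 nearest genes per member. Alternatives were median-ratio scaling, library size alone, a 1 CPM filter, no filter, DESeq2 1.42.0, the 2 groups alone, no chromosome 2, a replicate block and leaving out each library. Promoter windows came from RefSeq (GRCm38.p6); windows of chromosome 18 were not used here.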

Additional observations from a re-analysis of the deposited data

How the results depend on the processing

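Of 858 values of members over the 6 comparisons and all alternatives, 818 kept direction and side of the threshold, 15 lost and 19 gained the call, and 6 changed sign; for the comparisons with wild type these were 413 of 429, 3, 10 and 3. The number of members that fell in the mutant, 1 in the model reported, was 2 with library size alone, without a filter and with DESeq2, which each added Dnmt3l, and 0 without chromosome 2, which leaves out Dnmt3b; leaving out a library gave 1 to 2. Members lower in the knockout than in overexpression, 4 in all libraries, ranged from 2 to 4 when a library was left out. Genes called in the mutant numbered 2891, and 1883 without wild-type replicate 1. Changes of sign were all of uncalled values. Leaving out a library gave log2 changes of -0.009 to 0.227 for Tet3 in the knockout, -0.229 to 0.007 for Tet3 in the mutant, -0.006 to 0.05 for Tdg in overexpression, and -0.024 to 0.145 for Dnmt3l in the knockout against overexpression. Library size alone gave 0.034 for Dnmt3b and 0.024 for Tdg in overexpression against the mutant. The cause of these shifts was not tested. Replicate numbers did not pair the libraries (correlations of replicate differences from -0.0343 to 0.06); with a replicate block, 3 members were higher and 4 lower in the knockout, and no call of a member changed. With 2 libraries a group, the rise of Tet3 in overexpression rests on single libraries.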
